A study of Mus musculus with 3 samples.

Results

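Spp1, Trem2 and Gpnmb are genes of the lipid-associated macrophage state, and they were followed here together with Fabp5, Fabp4, Cd9, Cd63, Lgals3, Syngr1 and Il7r, 10 of the 54752 gene symbols in the count tables. The 10 genes were chosen by measured values of these same libraries, because several of them were among the genes most raised in the library of SB225002-treated mice, also outside macrophages. Their levels and ratios below are therefore a description, with no test.

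The samples were CD45+F4/80+7AAD- cells sorted from the infarct zone and the border zone of C57BL/6 mouse hearts at P13, 3 days after surgery at P10. P10-sham_vehicle mice had sham surgery and the vehicle, P10-MI_vehicle mice had myocardial infarction (MI) in which the left anterior descending artery was tied off and the vehicle, and P10-MI_SB225002 mice had MI and SB225002, which blocks CXCR2, a receptor for neutrophil-attracting chemokines. The labels give C57BL/6 as the genotype of all groups and name no engineered allele. Per the study's methods, tissue of 3 to 5 hearts was pooled, and each condition is 1 library, so that treatment, surgery, batch of animals and library cannot be told apart and no p-value is given. Intervals are exact 95% intervals of the counts and cover counting error only.

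Lipid-associated macrophages are phagocytes that take up and degrade lipid-rich debris, and they are known from adipose tissue, atherosclerotic plaques, demyelinated brain and injured heart. TREM2 is a surface receptor for lipids and lipoproteins that signals through the adaptor TYROBP. Osteopontin, encoded by Spp1, is a secreted ligand of CD44 and of several integrins, and GPNMB is a transmembrane glycoprotein of phagosomes and lysosomes. FABP4 and FABP5 carry fatty acids in the cytosol, CD9 and CD63 are tetraspanins of the plasma membrane and of late endosomes, and galectin-3 (Lgals3) binds β-galactoside sugars and damaged endosomes. Syngr1 encodes a vesicle membrane protein, and Il7r encodes the receptor chain for interleukin 7, best known from lymphocytes.

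The 250 bases before the annotated start of the 3 genes that name the group are shown because these genes were detected in the same cells, as described below. They are RefSeq sequences of GRCm38.p6, 5′ to 3′ on the gene's strand, from chr5:104434861-104435110 (Spp1), chr17:48346151-48346400 (Trem2) and chr6:49036268-49036517 (Gpnmb), all on the plus strand. Spp1 has a further RefSeq start, which is not shown. The genes themselves span chr5:104435118-104441050 (Spp1), chr17:48346401-48354147 (Trem2) and chr6:49036546-49070929 (Gpnmb) in GRCm38 and are protein-coding. Capitals mark a match to the AP-1-like pattern TGANTCA, in which N is any base, searched on both strands beside the E-boxes CACGTG and CATGTG.
Spp1: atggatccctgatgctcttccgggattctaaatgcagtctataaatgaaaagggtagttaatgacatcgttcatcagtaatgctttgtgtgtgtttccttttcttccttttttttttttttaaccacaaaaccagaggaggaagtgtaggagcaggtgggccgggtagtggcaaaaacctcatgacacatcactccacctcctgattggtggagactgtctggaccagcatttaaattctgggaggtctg
Trem2: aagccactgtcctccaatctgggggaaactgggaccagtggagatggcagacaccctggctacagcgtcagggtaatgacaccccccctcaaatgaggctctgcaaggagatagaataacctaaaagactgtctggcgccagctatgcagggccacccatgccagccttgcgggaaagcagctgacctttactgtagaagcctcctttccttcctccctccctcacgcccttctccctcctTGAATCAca
Gpnmb: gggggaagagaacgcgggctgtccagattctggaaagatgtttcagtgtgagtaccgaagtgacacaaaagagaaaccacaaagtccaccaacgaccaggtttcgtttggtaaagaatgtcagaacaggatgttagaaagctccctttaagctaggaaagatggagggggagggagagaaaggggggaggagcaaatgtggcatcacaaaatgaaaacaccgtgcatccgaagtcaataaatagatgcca
The Trem2 window held TGAATCA, a match to TGANTCA, 9 bases before the start, and the windows of Spp1 and Gpnmb held none of the 3 motifs. Over the 8 members with a RefSeq window, TGANTCA occurred in 1 member, CACGTG in 0 and CATGTG in 1 (Cd9, 38 bases before the start). Of 32851 windows of the same length, 6.75% held TGANTCA, 6.02% held CACGTG and 12.3% held CATGTG. Fabp4 and Fabp5, which lie on the same chromosome (chr3:10204088-10208576 and chr3:10012548-10016607), are without a window here.

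The libraries held 3390, 4511 and 5783 barcodes (values of the 3 libraries are given in the order of the groups above), with 29323567, 32498608 and 34235864 UMIs. After the filter, 2351, 3453 and 4744 cells remained, with median depths of 8521, 6400 and 5654 UMIs. Mononuclear phagocytic cells (MPCs, meaning macrophages and monocytes by their markers) were 2058, 2748 and 3757 of these, and 160, 417 and 529 cells carried the markers of fibroblasts, endothelial cells, B cells, T/NK cells, mural cells or neutrophils without much C1q (non-MPCs). Cells with the markers of several of these types, or with such markers and much C1q (124, 218 and 300), were set apart. Libraries shared 1260 to 1844 barcode sequences in pairs, and cells with a shared barcode were no more alike than others (median r across genes from -0.000535 to 0.00365, against 0.00417 to 0.0121 for unmatched barcodes).

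The label was checked against the cells. Of each library's Spp1, Trem2, Gpnmb and Syngr1 UMIs, 90.5% to 98.2% lay in MPCs. Fabp4 went against the label. Only 10.5% to 15.0% of its UMIs were in MPCs and 58.3% to 66.2% in endothelial cells, where its level was 23923, 22724 and 19585 CPM (UMIs per 1000000 of the cells' summed UMIs). Among classes with at least 10 cells in the library, Fabp5 was highest in endothelial cells of P10-sham_vehicle and P10-MI_vehicle, at 1663 and 1693 CPM, Il7r in T/NK cells of P10-MI_vehicle (316 CPM, 14 cells) and Cd63 in fibroblasts of each library. Smaller classes could stand higher, since the mural cells (4, 3 and 8) had 4975, 1773 and 2066 CPM of Fabp5 and, in P10-sham_vehicle, 1133 CPM of Cd63, and the 6 T/NK cells of P10-sham_vehicle had 435 CPM of Il7r. In P10-sham_vehicle the fibroblast interval for Cd63 (806 CPM) overlapped that of Lyve1+Folr2+ macrophages (715 CPM). Cd9, Cd63 and Lgals3 had 81.9% to 90.8% of their UMIs in MPCs, Fabp5 57.2% to 80.6% and Il7r 51.4% to 90.5%. MPCs themselves were 87.5%, 79.6% and 79.2% of the filtered cells. Thus Spp1, Trem2, Gpnmb and Syngr1 lay in MPCs beyond the MPC share of cells in each library. Cd9 and Cd63 lay nearer to that share, and Fabp4 was mainly an endothelial transcript.

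In MPCs, the ligand Spp1 had the widest range of the 10 genes. Its level was 107 CPM (103 to 112) in P10-sham_vehicle, 2642 CPM (2619.8 to 2665) in P10-MI_vehicle and 9023 CPM (8985 to 9060) in P10-MI_SB225002. Spp1 was thus 24.6-fold higher after MI than after sham surgery, and a further 3.41-fold higher with SB225002. Lgals3 followed the same order at 487, 1185 and 2138 CPM. Counted from the highest ratio, Spp1 had rank 12 and Lgals3 rank 152 among 12506 genes for P10-MI_SB225002 over P10-MI_vehicle.

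The receptor Trem2 was present at baseline and varied less. Its level was 286, 347 and 552 CPM, a log2 ratio of 0.28 (0.23 to 0.33) after MI and of 0.67 (0.63 to 0.71) with SB225002. Il7r was sparse, with 54, 204 and 601 UMIs in all MPCs (2.84, 10.1 and 23.97 CPM), and was also lowest in P10-sham_vehicle and highest in P10-MI_SB225002.

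Among the membrane and lysosomal genes, Gpnmb was nearly absent from P10-sham_vehicle MPCs, with 167 UMIs in 2058 cells. Its level was 8.79, 104 and 354 CPM, which made it 11.9-fold higher after MI, with a further log2 ratio of 1.77 (1.70 to 1.83) with SB225002. Cd9 (177, 295 and 541 CPM) and Syngr1 (27.7, 37.4 and 91.7 CPM) stood in the same order, and for Syngr1 most of the difference lay between the MI libraries, with a log2 ratio of 1.29 against 0.43 for MI over sham. Cd63 was close to level at 597, 577 and 647 CPM. Its log2 ratios were -0.05 (-0.09 to -0.01), which was 0.01 with TMM scaling, and 0.16 (0.13 to 0.20).

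The fatty acid chaperone Fabp5 was at 67.9, 283 and 932 CPM in MPCs. Fabp4, its close relative, was at 52.9, 62.6 and 92.7 CPM. Both were lowest in P10-sham_vehicle and highest in P10-MI_SB225002, with log2 ratios of 1.72 for Fabp5 and 0.57 for Fabp4 between the MI libraries.

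**Figure D1:**
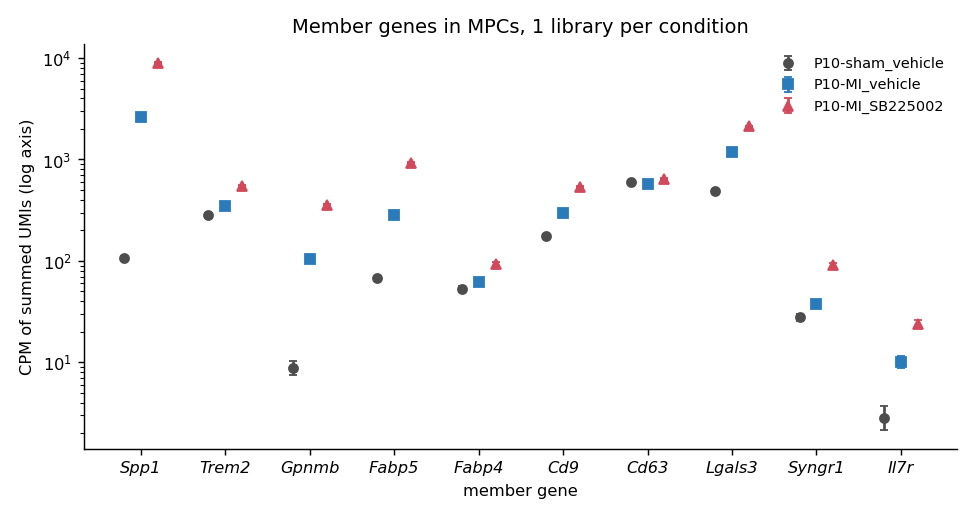
Level of each member in MPCs (CPM of summed UMIs, log axis) in the 3 libraries, 1 point per library with its exact Poisson 95% interval. P10-MI_SB225002 is the highest point for all 10 genes, and the distance between points is largest for Spp1 (107, 2642 and 9023 CPM) and smallest for Cd63 (597, 577 and 647 CPM).

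All 10 members had at least 50 UMIs in MPCs of the compared libraries together. For P10-MI_vehicle over P10-sham_vehicle, 5 of 10 (Spp1, Gpnmb, Fabp5, Il7r and Lgals3) were at least 2-fold higher, beside 4.03% of 12311 genes, and the median log2 ratio was 1.01 for the members and -0.07 for all genes. The Il7r ratio of 1.82 was -0.56 once the macrophage and monocyte classes, described below, were weighted to their shares in P10-MI_vehicle. In that weighting the Arg1+ class of P10-sham_vehicle is 1 cell with 3 Il7r UMIs (183 CPM), so the change of sign rests in part on that cell. For P10-MI_SB225002 over P10-MI_vehicle, 5 of 10 (Gpnmb, Spp1, Fabp5, Syngr1 and Il7r) were at least 2-fold higher, beside 0.752% of 12506 genes, with medians of 1.06 and -0.05. Nothing is read from these shares, since that contrast chose members. The comparisons share the P10-MI_vehicle library. As the difference of the mean log2(CP10K + 1) over cells, where CP10K is UMIs per 10000 of the cell, 1 member (Spp1) had a difference over 1 in each comparison.

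Depth differed between the libraries, so cells were thinned to 2000 UMIs before shares of cells were compared (1966, 2478 and 3306 MPCs). After thinning, 8.70%, 29.5% and 61.3% of MPCs had a Spp1 UMI. Before thinning the shares were 18.0%, 41.3% and 76.4%. Fibroblasts, taken as the comparison for free RNA (median depths of 6997, 5552 and 7364 UMIs, against 8658, 6371 and 5808 in MPCs), had a Spp1 UMI in 0 of 72 (which allows up to 4.17%), 17 of 168 (10.1%) and 25 of 144 (17.4%) thinned cells. The share of MPCs with Spp1 was thus above that background in the MI libraries, while at baseline it lay above the limit that 0 of 72 allows.

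Gpnmb was found in 1.22%, 6.46% and 18.1% of thinned MPCs (unthinned, 3.21%, 10.95% and 26.6%) and in 0 of 72, 3 of 168 and 4 of 144 thinned fibroblasts. In P10-sham_vehicle its share is no higher than 0 of 72 allows. Trem2 was found in 38.1%, 40.4% and 56.8% of thinned MPCs (unthinned, 74.4%, 66.1% and 76.4%) and in at most 1 thinned fibroblast of a library. The share of MPCs with Trem2 was thus many times that of fibroblasts in each library.

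The Spp1 UMIs were spread unevenly over cells. In thinned MPCs the 10% of cells with the most Spp1 held 88.0% of its UMIs in P10-MI_vehicle and 65.9% in P10-MI_SB225002. A cell with Spp1 held on average 2.16, 12.8 and 22.9 of its UMIs, and 0.254%, 8.60% and 26.98% of cells held at least 10. From 1 to 200 Spp1 UMIs, a larger share of P10-MI_SB225002 than of P10-MI_vehicle MPCs reached each count examined. Trem2 differed in this respect, since its positive cells held 1.43, 1.53 and 1.88 UMIs on average.

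**Figure D2:**
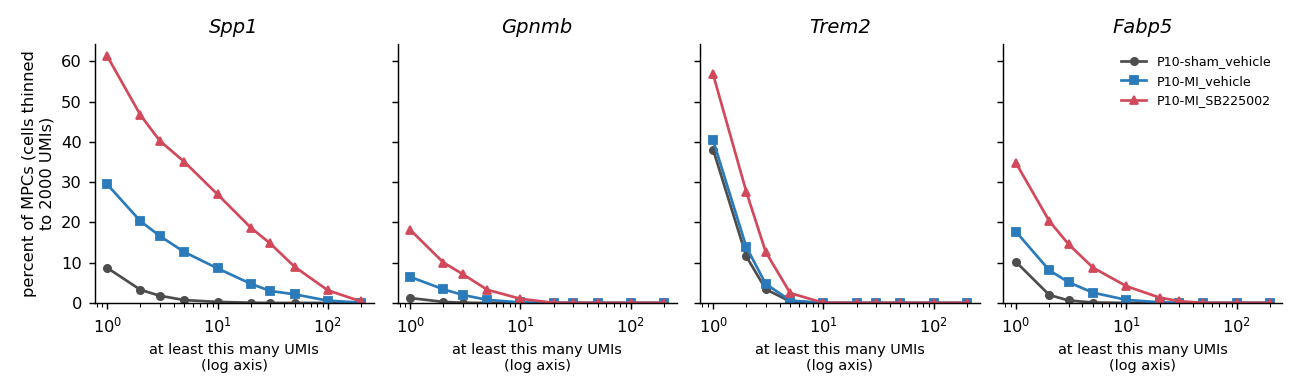
Percent of MPCs (vertical axis) with at least the number of UMIs on the horizontal axis (log axis), for Spp1, Gpnmb, Trem2 and Fabp5 in cells thinned to 2000 UMIs, 1 line per library. The Spp1 line of P10-MI_SB225002 starts at 61.3% and is still at 26.98% at 10 UMIs, where P10-MI_vehicle is at 8.60%, while the Trem2 lines are near 0 from 10 UMIs on.

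The members were often found in the same cell. Spp1, Trem2 and Gpnmb together were detected in 6 of 1966, 111 of 2478 and 424 of 3306 thinned MPCs, which is 0.305% (0.112 to 0.663), 4.48% (3.70 to 5.37) and 12.8% (11.7 to 14.0). Of the cells with Gpnmb, 9 of 24, 145 of 160 and 564 of 600 also had Spp1, whereas 5.26%, 19.9% and 27.8% of the Spp1 cells had Gpnmb. Gpnmb cells were hence nearly a subset of the Spp1 cells after MI. At least 5 of the 10 members were found in 3.71%, 12.3% and 32.0% of cells, and all 10 in 6 cells of P10-MI_SB225002 and in 0 cells of the other libraries (which allows up to 0.153% of P10-sham_vehicle and 0.121% of P10-MI_vehicle MPCs).

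**Figure D3:**
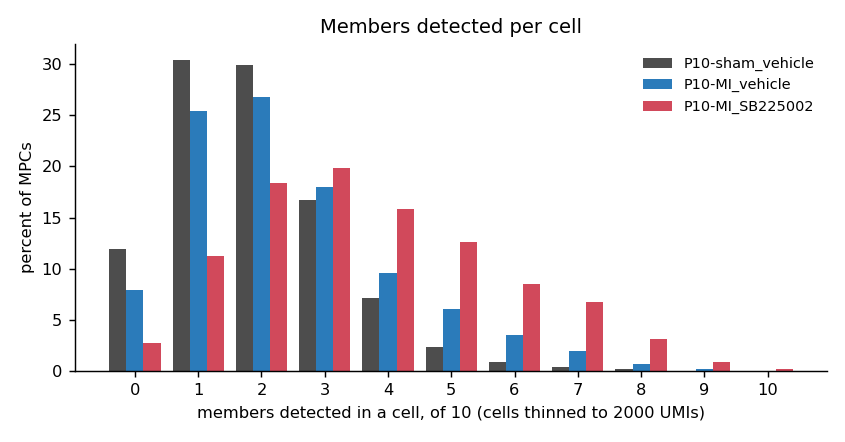
Percent of MPCs (vertical axis) by the number of the 10 members with a UMI in the cell (horizontal axis), in cells thinned to 2000 UMIs, 1 bar colour per library. Cells with no member make up 12.0%, 7.91% and 2.69%, and the bars of P10-MI_SB225002 are the tallest from 3 members upward.

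Across thinned MPCs of a library, the genes closest to each leading member by Pearson r of log2(CP10K + 1) were largely other members and genes of iron storage and lysosomes. These r values describe cells of 1 library each, among 5015 genes, and cells share their library and their depth. For Spp1 the 5 nearest were Lgals3 (mean r over libraries 0.40), Fn1 (0.37), Fabp5 (0.37), Ftl1 (0.32) and Cd9 (0.31), where Fn1 encodes the matrix protein fibronectin and Ftl1 the ferritin light chain. For Gpnmb they were Fabp5 (0.42), Spp1 (0.38), Lgals3 (0.34), Ftl1 (0.31) and Fth1 (0.26). For Fabp5 they were Spp1 (0.37), Lgals3 (0.35), Ftl1 (0.32), Fth1 (0.30) and Ctsd (0.27), and for Trem2 they were Fth1 (0.24), Ctsd (0.23), Ftl1 (0.23), Spp1 (0.22) and Ctsb (0.20), with Ctsd and Ctsb encoding lysosomal proteases. The r of Gpnmb with Fabp5 was 0.17, 0.51 and 0.58 in the 3 libraries. Fabp4 stood apart from Trem2 and Spp1, with r from -0.00432 to 0.0133 with Trem2 and from 0.0143 to 0.0471 with Spp1. Its nearest gene was Fabp5, with r of 0.069, 0.085 and 0.153 in the 3 libraries.

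MPCs were divided by marker gates that did not use the members. After MI there were fewer Lyve1+Folr2+ macrophages (27.2%, 19.2% and 8.73% of MPCs) and more Arg1+ macrophages (1, 130 and 481 cells, or 0.0486%, 4.73% and 12.8%). The Lyve1+Folr2+ gate asks for a UMI of both genes in unthinned cells, and the median depth of MPCs fell in the same order. The part of depth in the Lyve1+Folr2+ shares was not tested. C1q-low cells without enough monocyte markers, called other C1q-low cells, were 8, 85 and 249. The gates on level are cuts through a range. In P10-MI_SB225002, 205 of the 481 Arg1+ cells lay within 2-fold above the Arg1 cut and 225 MPCs within 2-fold below it, and 143 MPCs lay within 2-fold below the C1q cut.

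The other C1q-low cells had the highest Spp1, Gpnmb and Lgals3 of all classes in both MI libraries. Spp1 was at 22506 CPM in P10-MI_vehicle and 36081 CPM in P10-MI_SB225002. A single cell held 21.3% of the Spp1 UMIs of the 85 cells of P10-MI_vehicle, and the level was 18308 CPM without it. Gpnmb was at 927 and 1754 CPM and Lgals3 at 4984 and 6287 CPM, although in P10-MI_vehicle the Lgals3 interval overlapped that of MHCII+ C1q-low cells (4887 CPM). These cells made up 2.85% and 6.18% of MPC UMIs and 24.2% and 24.7% of the MPCs' Spp1 UMIs. Spp1, Trem2 and Gpnmb were found together in 16 of 63 and 80 of 197 of them after thinning, 25.4% (15.3 to 37.9) and 40.6% (33.7 to 47.8). The macrophage marker list summed to 2519 and 2784 CPM in them, against 12184 and 11382 CPM in all MPCs, and the Ly6c-high monocyte list to 1268 and 977 CPM.

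Arg1+ macrophages were gated on Arg1 at any level of C1q, so they include C1q-low cells. After MI they had more Spp1 than each class gated on high C1q. Their Spp1 was at 7318 and 14253 CPM in the MI libraries, and their Trem2 at 354 and 707 CPM. They held 18.5% and 23.95% of the Spp1 UMIs of MPCs, with 6.67% and 15.2% of all MPC UMIs. Their single cell in P10-sham_vehicle held 117 Spp1 UMIs, 5.74% of all Spp1 in that library's MPCs.

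Lyve1+Folr2+ macrophages, a resident type, had less Spp1 than dividing and other C1q+ macrophages in each library, at 57.6, 662 and 2024 CPM. Dividing macrophages were at 89.2, 913 and 4477 CPM, and other C1q+ macrophages at 148, 2168 and 7341 CPM. Spp1 was therefore lowest in P10-sham_vehicle and highest in P10-MI_SB225002 in each of these 3 classes, and so was Gpnmb. MHCII+ macrophages (17, 63 and 54 cells) had Spp1 at 48.7, 718 and 1537 CPM. That was below the Lyve1+Folr2+ level in P10-MI_SB225002, while the intervals of these classes overlapped in the other libraries.

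The makeup of the libraries differed as well. With the classes weighted to the shares of P10-MI_vehicle, the median log2 ratio of the members for P10-MI_SB225002 over P10-MI_vehicle was 0.77 in place of 1.06, and 4 of 10 members were at least 2-fold higher. For P10-MI_vehicle over P10-sham_vehicle it was 0.23 in place of 1.01 with 3 of 10 past 2-fold, a value that rests in part on the single Arg1+ cell and the 8 other C1q-low cells of P10-sham_vehicle.

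Within classes, the counts of members at least 2-fold higher in P10-MI_SB225002 than in P10-MI_vehicle are given beside the share of all genes. In Lyve1+Folr2+ macrophages they were 3 of the 9 members with at least 50 UMIs, beside 0.873% of genes. In other C1q+ macrophages they were 6 of 10, beside 0.938%, and Cd9 (log2 ratio 1.09) joined Spp1 (1.76), Gpnmb (1.81), Fabp5 (1.57), Syngr1 (1.10) and Il7r (1.43). In dividing macrophages they were 4 of 10, beside 0.651%. In Arg1+ macrophages they were 3 of 10, beside 3.26%, and Cd9 was lower there, with a log2 ratio of -0.39 (-0.50 to -0.29).

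In Ly6c-high monocytes 5 of 9 members were at least 2-fold higher, beside 1.93% of genes. Cd63 was at 36.0 and 150.02 CPM and Spp1 at 2656 and 9420.4 CPM, and 31.9% of the Spp1 UMIs of P10-MI_vehicle lay in 1 of its 154 cells. In other C1q-low cells 4 of 10 were at least 2-fold higher, beside 1.99%, with Fabp4 at 78.0 and 299.6 CPM.

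Ly6c-low monocytes, which patrol vessels, went the other way for 4 members, at 59 and 46 cells. Spp1 was at 7765 and 1061 CPM, Gpnmb at 254 and 17.4 CPM and Cd63 at 167 and 52.2 CPM, so that 3 of 8 members were at least 2-fold lower, beside 4.79% of genes. Lgals3 was lower as well, at 2463 and 1373 CPM, a log2 ratio of -0.84 (-1.10 to -0.59). Fabp4 was higher, at 167 and 339 CPM (50 and 39 UMIs), and Trem2 stood at 127 and 191 CPM with overlapping intervals. The values of Spp1, Gpnmb and Cd63 rest on single cells of P10-MI_vehicle. The cell with the most Spp1 held 85.8% of its UMIs, all 76 Gpnmb UMIs lay in 1 cell, and 1 cell held 84.0% of the 50 Cd63 UMIs. Without the leading cell of each library, Spp1 was at 1197 and 269 CPM while Gpnmb had 0 UMIs in P10-MI_vehicle and was at 9.32 CPM in P10-MI_SB225002.

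**Figure D4:**
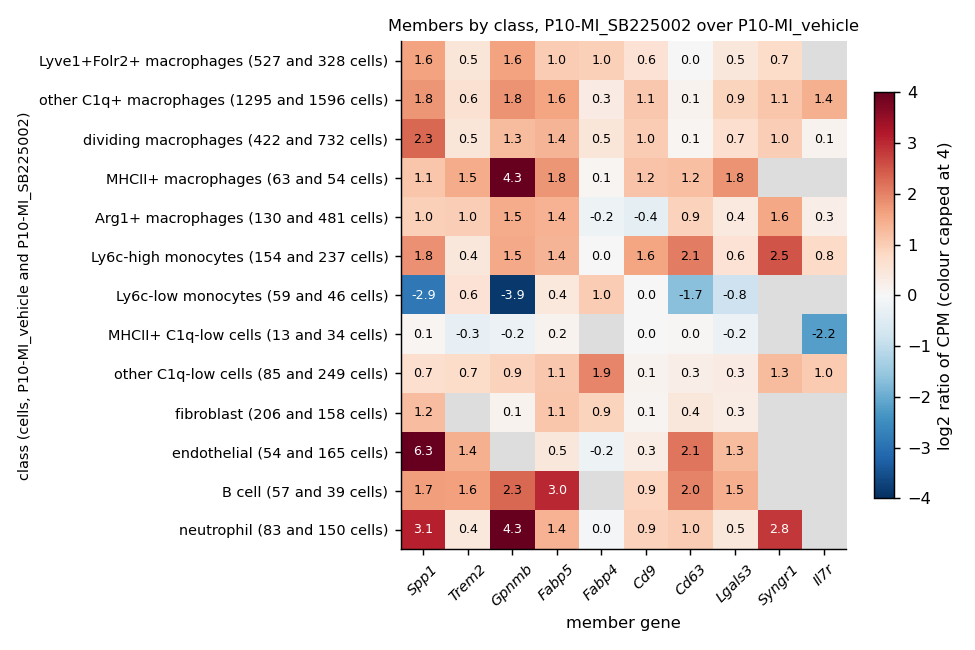
The log2 ratio of CPM, P10-MI_SB225002 over P10-MI_vehicle, for each member (columns) in each marker-gated class with at least 10 cells in both libraries (rows, with the cells of P10-MI_vehicle and P10-MI_SB225002), so that T/NK and mural cells are not drawn. Grey marks fewer than 20 UMIs in the pair of libraries or 0 in either, the colour is capped at 4, the Spp1 column is above 0 in every row shown but Ly6c-low monocytes (-2.87), while Fabp4 lies between -0.21 and 1.94.

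Outside MPCs, Spp1 was detected as well. Its level in all non-MPCs was 2.48 CPM (3 UMIs), 582 CPM and 2732 CPM, and that of Gpnmb was 0 (0 UMIs, which allows up to 2.48 CPM), 14.9 and 123 CPM. For P10-MI_vehicle over P10-sham_vehicle, 2 of the 8 members with at least 50 UMIs (Spp1 and Trem2) were at least 2-fold higher, beside 2.9% of 8956 genes. Fabp5 (log2 ratio -1.02) and Fabp4 (-1.28) were at least 2-fold lower. Endothelial cells were a smaller part of non-MPCs after MI (54 of 417) than after sham surgery (37 of 160). Within endothelial cells Fabp4 was at 23923 and 22724 CPM in P10-sham_vehicle and P10-MI_vehicle, and Fabp5 at 1663 and 1693 CPM. In fibroblasts Fabp5 was at 237 and 78.9 CPM. For P10-MI_SB225002 over P10-MI_vehicle, 5 of 10 members (Gpnmb, Syngr1, Spp1, Fabp5 and Fabp4) were at least 2-fold higher, beside 3.63% of 10086 genes. The median log2 ratio was 0.98 for the members and 0.08 for all genes. Il7r was lower, at 15.5 and 6.40 CPM (50 and 20 UMIs), a log2 ratio of -1.27 (-2.10 to -0.50). T/NK cells (14 and 9 cells) held 36 and 4 of these UMIs, B cells 10 and 0, and neutrophils 4 and 13.

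In neutrophils (20, 83 and 150 cells) Spp1 was at 3.78, 727 and 6312 CPM. In P10-MI_vehicle, 79.8% of these UMIs lay in 1 cell, and without the leading cell of each library the level was 151 CPM in P10-MI_vehicle and 5423 CPM in P10-MI_SB225002. Of the 150 neutrophils of P10-MI_SB225002, 23 held at least 10 Spp1 UMIs. Among neutrophils with no C1qa, C1qb or C1qc UMI (9, 30 and 69 cells), Spp1 was at 0, 16.2 and 683 CPM. P10-MI_SB225002 was thus again above P10-MI_vehicle, at a lower level. The 0 of P10-sham_vehicle rests on 9 cells, so its place below P10-MI_vehicle is not shown. In neutrophils 4 of 8 members were at least 2-fold higher in P10-MI_SB225002 than in P10-MI_vehicle, beside 2.71% of genes.

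In B cells (20, 57 and 39 cells) Spp1 was at 0 (up to 23.4 CPM), 2344 and 7532 CPM. A single cell held 85.3% of these UMIs in P10-MI_vehicle and 52.8% in P10-MI_SB225002. Among B cells with no C1q UMI (11, 33 and 20 cells), the level was 0, 81.2 and 178 CPM. In B cells 3 of 4 members with at least 50 UMIs were at least 2-fold higher in P10-MI_SB225002, beside 2.88% of genes, and Fabp5, at 128 and 1033 CPM, had 76.1% of its UMIs in 1 cell of that library.

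In endothelial cells (37, 54 and 165 cells) Spp1 was at 0 (up to 13.9 CPM), 20.2 and 1552 CPM, and 3 of 6 members were at least 2-fold higher, beside 6.11% of genes. A single cell of P10-MI_SB225002 held 54.7% of the Spp1 UMIs, and the level was 720.5 CPM without it and 669 CPM in the 89 cells with no C1q UMI. The endothelial marker Fabp4 itself was not higher there, with a log2 ratio of -0.21 (-0.26 to -0.17). Over all non-MPCs, Fabp4 had a log2 ratio of 1.33 (1.29 to 1.38) and -0.20 once the cell types were weighted to P10-MI_vehicle. Endothelial cells were 54 of 417 non-MPCs in P10-MI_vehicle and 165 of 529 in P10-MI_SB225002.

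In fibroblasts (73, 206 and 158 cells) Spp1 was at 3.65, 51.2 and 119.9 CPM, spread over 2, 44 and 81 cells. They held no cell with 10 or more Spp1 UMIs in P10-MI_SB225002 and 1 in P10-MI_vehicle. T/NK cells (6, 14 and 9 cells) had 0, 312 and 42 Spp1 UMIs, with 84.6% and 85.7% of them in 1 cell of each MI library. In fibroblasts 2 of 6 members (Spp1 and Fabp5) were at least 2-fold higher, beside 1.05% of genes.

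**Figure D5:**
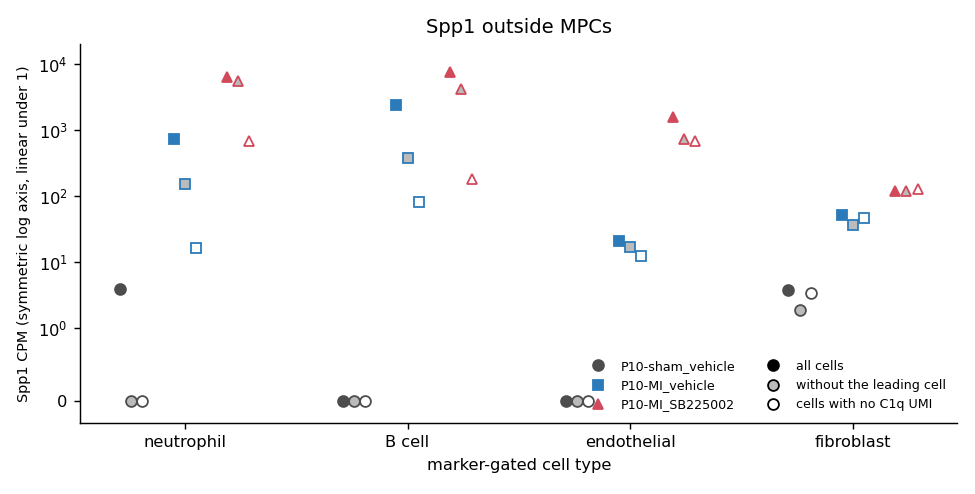
Spp1 CPM (symmetric log axis, linear under 1) in 4 marker-gated cell types of the 3 libraries, over all cells of the type (filled), without the cell with the most Spp1 UMIs in that library (grey) and over cells with no C1q UMI (open). In neutrophils of P10-MI_SB225002 the values are 6312, 5423 and 683 CPM, and in fibroblasts the 3 values of each library lie within 2-fold of each other.

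Markers of macrophages were present in these types, and they stood in the same order in some. The 10 macrophage markers summed to 181, 803 and 917 CPM in neutrophils, to 599, 750.3 and 1355 CPM in B cells, to 208, 275 and 455 CPM in endothelial cells and to 149.6, 152 and 153 CPM in fibroblasts. None of the 10 was at 0 in these types of the MI libraries, and 1 was at 0 in the neutrophils (Mertk) and in the B cells (Fcgr1) of P10-sham_vehicle. The part of macrophage RNA in the Spp1 values was not tested. Spp1 UMIs were also counted per 100 C1q UMIs (C1qa, C1qb and C1qc), and MPCs with little C1q, the other C1q-low cells, held Spp1 at 22506 and 36081 CPM in the MI libraries. In MPCs there were 1.11, 32.4 and 111 Spp1 UMIs per 100 C1q UMIs, while in P10-MI_SB225002 there were 132 in fibroblasts, 678 in endothelial cells, 1501 in B cells and 1844 in neutrophils. In P10-MI_vehicle there were 27.8 in endothelial cells, 77.9 in fibroblasts, 216 in neutrophils and 848 in B cells. In neutrophils and B cells of P10-MI_vehicle a single cell held most of the Spp1 UMIs, as given above.

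Transcripts of other cell types were also present in MPCs. The neutrophil list of 12 genes summed to 1411, 3417 and 4029.5 CPM in MPCs, with 1 gene at 0 in P10-sham_vehicle and none in the MI libraries, and the cardiomyocyte list to 266, 166 and 199 CPM. Neutrophils had less Spp1 than all MPCs in each library, and their part in the MPC values was not tested.

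The other genes of the pathways were taken from lists, and the levels of most of them differed by less than those of the leading members. Of 32 lipid and lysosome genes, 3 of 31 measured were at least 2-fold higher in MPCs after MI, Atp6v0d2 (log2 ratio 1.42), Itgax (1.20) and Clec7a (1.18), and 2 of 32 with SB225002, Cst7 (1.46) and Atp6v0d2 (1.20). Their medians were 0.26 and 0.36. Atp6v0d2 encodes a subunit of the lysosomal proton pump, Cst7 a cathepsin inhibitor and Itgax the integrin CD11c. The lysosomal proteases Ctsl and Ctsd stood at log2 ratios of 0.84 and 0.77 with SB225002, whereas Apoe, which encodes a lipoprotein component, stood at 0.01, the lipase gene Lpl at 0.01 and the cholesterol exporter gene Abca1 at -0.17. These 5 genes were chosen after their values were seen.

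The TREM2 signalling partners had median log2 ratios of 0.20 after MI and 0.01 with SB225002, and 0 of 8 were past 2-fold. Tyrobp, the TREM2 adaptor, was at 2215.5, 2504 and 2680.2 CPM, and the kinase gene Syk at 141, 173 and 137 CPM. The remaining partners had log2 ratios with SB225002 of -0.16 (Hcst), 0.08 (Plcg2), -0.11 (Inpp5d), 0.12 (Vav1), 0.03 (Adam10) and -0.02 (Adam17). Each of these ratios was nearer to 0 than that of Trem2 (0.67).

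The receptors of osteopontin had medians of 0.12 and -0.05, with 0 of the 7 measured past 2-fold. Cd44 was at 257, 344 and 332 CPM. Itgb1 (-0.34), Itga4 (-0.38) and Itga9 (-0.50) were lower with SB225002, Itgav (0.18) and Itgb5 (0.20) higher, and Itga5 stood at 0.04. Itgb3 had 14, 30 and 12 UMIs. No receptor of the list thus had a ratio near that of Spp1.

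The signalling partners of IL7R had medians of 0.07 and -0.21. Il2rg, which encodes the chain shared by several interleukin receptors, was at 15.4, 28.2 and 24.2 CPM, Jak1, Jak3, Stat5a and Stat5b had log2 ratios from -0.22 to -0.10 with SB225002, and Crlf2 had 0.25. The ligand Tslp was at 2.58, 5.03 and 1.95 CPM (-1.36 with SB225002), and Il7 had 0 or 1 UMI in a library's MPCs. Of the MiT/TFE factors, which drive lysosomal genes and in macrophages Gpnmb, none was higher with SB225002 beyond counting error, at -0.24 (Mitf), 0.06 (Tfeb), -0.24 (Tfe3) and -0.23 (Tfec).

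Most relatives of the members were closer to level. Among 9 tetraspanins and partners, 1 was past 2-fold after MI (Ptgfrn, 1.27) and none with SB225002. Among galectins, Lgals1 (0.33), Lgals9 (0.31) and Lgals3bp (0.35) were higher with SB225002 and Lgals8 (-0.20) lower, while Lgals2 and Lgals4 were at or under 2.42 CPM. Fabp7 stood in the order of the members at 0.895, 4.54 and 7.90 CPM, Fabp3 was at 52.7, 33.7 and 42.2 CPM, and Fabp1, Fabp2 and Fabp6 had between 0 and 3 UMIs in a library's MPCs. Syngr2 was at 109, 112 and 136 CPM, and Syngr3 and Syngr4 were at or under 0.737 CPM.

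Some member counts can hold reads of other genes. Syngr1 (chr15:80091334-80119501) overlaps Rpl3 on the other strand, which had 16393, 16539 and 26432 UMIs in MPCs against 526, 759 and 2300 of Syngr1, and whether the counting used strand is not given in the sources used here. Cd63 and Cd9 have pseudogene copies in the table (Cd63-ps with 28, 252 and 276 UMIs against 11339, 11711 and 16215 of Cd63). Cd9 and Spp1 overlap short annotated transcripts with at most 162 UMIs in a library.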

How the data were processed

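Sorted CD45+F4/80+7AAD- cells of 3 libraries, 1 per group, were profiled by droplet single-cell RNA sequencing. The values the authors deposited are unnormalised counts of UMIs for each gene in each barcode. The submitters' processing notes name the build mm10 and Seurat 4.1.0, and the aligner and annotation are not given in the sources used here. Cells with more than 500 and fewer than 30000 UMIs, more than 500 and fewer than 5000 genes and under 10% mitochondrial UMIs were kept, as in the study's methods, and no doublet caller was run. Cells with markers of both a phagocyte and another type were set apart.

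Cells were classed by marker gates on counts of detected markers, C1q (20 CP10K), Arg1 (8 CP10K) and MHCII (20 CP10K). UMIs were summed per class and library and scaled to CPM. Ratios carry exact conditional 95% intervals, levels exact Poisson intervals and shares exact Clopper-Pearson intervals, all for counting error only. With 1 library a group no test was possible. A limit for a count of 0 is 3 counts. Counts of members past 2-fold used genes with at least 50 UMIs in both libraries together. Shares of cells used cells thinned to 2000 UMIs, and depths per library are given in the text. The calculation of the ratio was run on simulated Poisson counts. All 200 changed genes had the right direction in both comparisons, and 95% of intervals held the true value. Poisson counts are what the intervals assume, so this checks the calculation only. It says nothing of UMIs that cluster in single cells.

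The text names the 10 members, partner-list genes in lists of up to 8 genes or past 2-fold, and the 5 genes nearest to Spp1, Trem2, Gpnmb and Fabp5 among genes found in at least 5% of MPCs. The members, lists, gates and comparisons were chosen with earlier results of these data known. Alternatives were a mitochondrial limit of 5%, no limits, thinning, TMM scaling (edgeR 4.0.16), DESeq2 1.42.0 size factors, a mean of cell log values, stricter gates, class weighting and leaving out the top 1% of cells. Python 3.11.15, scipy 1.17.1 and R 4.3.3 were used.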

Additional observations from a re-analysis of the deposited data

Results flagged for a closer look

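In 5 cases a member differed at least 2-fold in a single cell class in the opposite direction to all MPCs, with both counting intervals apart from 0, among classes with at least 10 cells in both libraries. Smaller opposite differences, such as a log2 ratio of -0.84 for Lgals3 in Ly6c-low monocytes and -0.39 for Cd9 in Arg1+ macrophages with SB225002, are not among the 5. The differences between classes were not tested, since each condition is 1 library. Fabp5 had a log2 ratio of -1.59 (237 and 78.9 CPM) in fibroblasts for P10-MI_vehicle over P10-sham_vehicle, against 2.06 in MPCs. In Ly6c-low monocytes, for P10-MI_SB225002 over P10-MI_vehicle, the log2 ratio was -2.87 for Spp1 (1.77 in MPCs), -3.87 for Gpnmb (1.77 in MPCs, from 76 and 2 UMIs) and -1.68 for Cd63 (0.16 in MPCs, from 50 and 6 UMIs). Without the cell of each library with the most Spp1 UMIs, chosen after seeing the data, the Spp1 ratio in Ly6c-low monocytes was -2.15. Il7r in MHCII+ C1q-low cells had a log2 ratio of -2.19 (17 and 5 UMIs, 99.01 and 21.7 CPM), against 1.25 in MPCs.

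Barcodes removed by the filter, which the main comparisons did not use, also held the leading members above the P10-sham_vehicle level. Spp1 was at 127 CPM in those of P10-sham_vehicle, 2573 CPM in P10-MI_vehicle and 5645 CPM in P10-MI_SB225002. Gpnmb was at 8.61, 103 and 256 CPM.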

How the results depend on the processing

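Of the members' log2 ratios past 2-fold in or outside MPCs, 2 changed sign, both with classes weighted to P10-MI_vehicle: Il7r in MPCs for MI over sham (-0.56) and Fabp4 outside MPCs for P10-MI_SB225002 over P10-MI_vehicle (-0.20). Among smaller ratios, Cd63 in MPCs for MI over sham (-0.05) was 0.01 with TMM scaling and 0.08 with class weighting, Cd63 outside MPCs with SB225002 (0.40) was -0.22 with the mean log2 value, and Gpnmb in fibroblasts (0.13) was -0.17 in cells with no C1q UMI. The count of members past 2-fold in MPCs (5 in each comparison) was 1 in each with the mean log2(CP10K + 1) per cell, and 3 for MI over sham with class weighting. The median member log2 ratio for MI over sham (1.01) was 0.84 with cells thinned, 1.06 with TMM scaling, 0.048 with the mean log2 value, 0.23 with class weighting and 0.94 without the top 1% of cells. With SB225002 over vehicle, the median in MPCs (1.06) was 0.86 with mitochondrial share under 5%, 0.52 with the mean log2 value, 0.77 with class weighting and 1.19 without the top 1% of cells. Outside MPCs it (0.98) was 0.23, 0.62 and 0.54 under the last 3. The cause of these moves was not tested. The weighted values for sham rest on 1 Arg1+ cell and 8 other C1q-low cells. The share of all genes at least 2-fold higher in MPCs (4.03% and 0.752%) was 7.51% and 2.63% with genes of at least 10 UMIs and 2.71% and 0.366% with at least 200. Depth limits Il7r, Syngr1 and the classes of few cells. No paired analysis was possible because each group is 1 library. No library could be left out for the same reason.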
